A study of Mus musculus with 412 samples.

Results

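The 7 genes described here belong to the opioid system and its nociceptin branch: the receptor genes Oprm1, Oprd1, Oprk1 and Oprl1, for the mu, delta, kappa and nociceptin receptors, and the precursor genes Penk, Pdyn and Pnoc, from which enkephalins, dynorphins and nociceptin are cut. They were chosen by name, and all 7 were found among 45513 genes in a table of mouse colonic sensory neurons sequenced one at a time. The neurons came from healthy C57BL/6J mice and had been labelled by Fast Blue, a tracer injected into the wall of the colon and carried back to the cell body. Dorsal root ganglia (DRG) were taken at T10-L1, called thoracolumbar or TL, and at L5-S2, called lumbosacral or LS, and were dissociated into separate cultures, and stained neurons were picked by pipette for the full-length Smart-seq2 protocol. All neurons therefore shared surgery, tracer, enzymatic dissociation and a short time in culture, and the age and sex of the mice are not given in the sources used here.

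Opioid receptors are coupled to inhibitory G proteins of the Gi/o family. In sensory neurons they lower cyclic AMP, close presynaptic calcium channels and, where the subunits are present, open inwardly rectifying potassium channels, which together reduce transmitter release. Mu-receptor agonists relieve visceral pain and slow the gut, and kappa-receptor agonists have long been studied for pain arising in the colon.

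Values were available for 325 neurons, 167 TL and 158 LS, in 6 library plates. Plate 1 held 5 TL neurons only, and plates 2 to 6 held 22 to 38 TL and 21 to 38 LS neurons each. Levels are given in TPM, transcripts per 1000000 in a neuron, a measure scaled for gene length, and a gene was counted as expressed in a neuron at 10 TPM or more. Reads recovered from the values ranged from 416007 to 12058968 per neuron, with a median of 2867071. The number of reads worth 10 TPM was taken for each gene as a median over the neurons in which that gene was above 0. It was 99.6 for Oprm1, 49.3 for Oprl1, 128 for Oprk1, 57.9 for Oprd1, 20.3 for Penk, 28.7 for Pdyn and 25.8 for Pnoc. As the mouse of each neuron is not named, each segment was treated as 1 sample, no test was made between groups, and intervals on shares are exact 95% Clopper-Pearson intervals. Where no neuron reached the threshold, the upper limit given is instead a floor of 3 neurons out of the total, and both cover counting error only. All 10 sensory neuron markers examined were expressed in most neurons, as were 6 of 10 satellite glia markers, whose summed level ranged from 6.83 to 100989 TPM with a median of 2023 TPM.

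Neurons were also grouped by Gfra3, a co-receptor for artemin that marks peptidergic nociceptors, and by Piezo2, a mechanically gated ion channel. With the threshold of 10 TPM, 158 neurons had Gfra3 without Piezo2 (82 TL and 76 LS, called Gfra3 neurons), 120 had Piezo2 without Gfra3 (55 TL and 65 LS, called Piezo2 neurons), 25 had both and 22 had neither. The neurons with neither gene also had fewer genes above 0, with a median of 9459 against 13678 in Gfra3 and 14173 in Piezo2 neurons.

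The receptor genes sat behind promoters of different base composition. RefSeq promoter windows of 300 bases (GRCm38.p6, from 250 bases before to 50 after a start site) were matched for Oprm1, Oprl1, Oprd1 and Pdyn. Those of the most widely expressed receptors, Oprm1 and Oprl1, are shown with that of Oprd1, which reached 10 TPM in no neuron. Where a gene had several start sites, the one nearest the annotated 5′ end of the gene was taken, and the table of levels does not tell which start site was used. Capitals mark CG dinucleotides.
Oprm1, chr10:6758343-6758642, plus strand: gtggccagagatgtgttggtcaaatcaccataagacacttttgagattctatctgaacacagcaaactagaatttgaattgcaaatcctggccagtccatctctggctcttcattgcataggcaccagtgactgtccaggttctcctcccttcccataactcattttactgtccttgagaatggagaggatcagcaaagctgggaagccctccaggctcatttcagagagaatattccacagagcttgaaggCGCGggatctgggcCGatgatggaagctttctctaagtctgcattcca
Oprl1, chr2:181714766-181715065, plus strand: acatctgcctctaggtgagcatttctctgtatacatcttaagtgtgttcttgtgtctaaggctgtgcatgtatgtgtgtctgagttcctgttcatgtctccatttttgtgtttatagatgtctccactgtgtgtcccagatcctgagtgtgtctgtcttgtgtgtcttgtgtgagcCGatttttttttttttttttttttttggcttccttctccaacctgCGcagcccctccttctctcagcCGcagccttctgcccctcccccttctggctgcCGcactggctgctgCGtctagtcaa
Oprd1, chr4:132144437-132144736, minus strand: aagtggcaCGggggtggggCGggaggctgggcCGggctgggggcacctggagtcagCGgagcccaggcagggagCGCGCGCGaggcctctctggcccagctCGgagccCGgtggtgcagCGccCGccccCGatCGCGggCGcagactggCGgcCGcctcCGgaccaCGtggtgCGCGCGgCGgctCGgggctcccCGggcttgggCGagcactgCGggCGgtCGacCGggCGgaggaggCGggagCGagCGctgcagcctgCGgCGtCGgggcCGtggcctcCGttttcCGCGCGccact

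The Oprm1 window held 3 CG dinucleotides and the Oprl1 window 5, fewer than in most of the 32851 promoters of the same length, of which 23.3% and 38.0% held fewer. The Oprd1 window held 43, more than 97.4% of all promoters, and its GC content was 79.3% against 47.3% for Oprm1 and 47.7% for Oprl1. Searched on both strands, the GC box (GGGCGG) was found 4 times in the Oprd1 window and in neither of the others, while 35.7% of all promoters held it. Windows at the other Oprm1 start sites held 4 and 5 CG dinucleotides, with a GC content of 52.0% and 52.3%. Those at the other Oprl1 start sites held 2 each, with a GC content of 53.7% and 49.7%. These counts describe the letters in the windows, and methylation and factor binding were not measured.

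Oprm1 was the most widely expressed member. The gene lies on chromosome 10 from 6758506 to 7038198 on the plus strand of GRCm38, and 1.19% of its exonic bases are shared with exons of Ipcef1 on the opposite strand, a gene with a mean of 1.08 TPM. Oprm1 reached the threshold in 221 of 325 neurons, or 68.0% (62.6 to 73.0%). Its level ran from 0 to a highest value of 221 TPM, with a median of 29.8 TPM and a mean of 31.8 TPM, higher than the mean of 89.4% of all genes above 0 in any neuron.

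Oprl1 came next. It spans 181715016 to 181720985 on the plus strand of chromosome 2 and was expressed in 139 of 325 neurons, or 42.8% (37.3 to 48.3%). Its median was 6.05 TPM, its mean 18.8 TPM and its highest value 161 TPM, so a large group of neurons at or near 0 stood beside a group with clear expression. In the neurons that reached the threshold, the median level was 42.1 TPM for Oprm1 and 32.7 TPM for Oprl1. The shares and these medians both depend on the threshold of 10 TPM.

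The remaining members were rare. Oprk1 reached 10 TPM in 9 neurons (2.77%, 1.27 to 5.19%), Penk in 4 (1.23%, 0.336 to 3.12%) and Pdyn in 2 (0.615%, 0.0746 to 2.21%). Oprd1 and Pnoc reached it in 0 of 325 neurons, which by the floor of 3 neurons allows a share of up to 0.923%. No opioid receptor gene was expressed in 86 neurons, or 26.5% (21.7 to 31.6%), and 1 LS neuron expressed 3 of them.

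With all plates together, Gfra3 neurons expressed Oprm1 and Oprl1 more often and at higher levels than Piezo2 neurons in both segments. In TL ganglia, Oprm1 was expressed in 70 of 82 Gfra3 neurons (85.4%, 75.8 to 92.2%) and in 31 of 55 Piezo2 neurons (56.4%, 42.3 to 69.7%). Plate 2 went the other way in this share, with 10 of 13 TL Gfra3 (76.9%) and 7 of 8 TL Piezo2 neurons (87.5%). The median rose from 12.7 TPM in TL Piezo2 to 48.6 TPM in TL Gfra3 neurons, and the means were 19.5 and 49.2 TPM. The groups overlapped, as TL Piezo2 neurons reached 95.9 TPM and some TL Gfra3 neurons were at 0.

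In LS ganglia the gap in Oprm1 was wider. It was expressed in 74 of 76 LS Gfra3 neurons (97.4%, 90.8 to 99.7%), with a median of 41.3 TPM, and in 17 of 65 LS Piezo2 neurons (26.2%, 16.0 to 38.5%), with a median of 0.111 TPM. The ratio of means, Gfra3 over Piezo2, was 2.25 on the log2 scale in LS and 1.33 in TL neurons, and Gfra3 neurons had the higher mean in 5 of 5 plates in each segment. Within plates the log2 ratio ran from 1.04 to 4.10 in LS and from 0.12 to 1.99 in TL neurons, so the ranges of the segments overlapped and the difference between segments was not tested.

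Oprl1 followed the same order in both segments. It was expressed in 54 of 82 TL Gfra3 neurons (65.9%, 54.5 to 76.0%) with a mean of 40.9 TPM, and in 12 of 55 TL Piezo2 neurons (21.8%, 11.8 to 35.0%) with a mean of 6.45 TPM. In LS ganglia it was expressed in 57 of 76 Gfra3 neurons (75.0%, 63.7 to 84.2%) with a mean of 24.7 TPM, and in 9 of 65 Piezo2 neurons (13.8%, 6.53 to 24.7%) with a mean of 4.61 TPM. The log2 ratios were 2.67 in TL and 2.42 in LS neurons, with the higher mean in Gfra3 neurons in 5 of 5 plates of each segment. Without each plate they ran from 2.54 to 3.18 in TL and from 2.26 to 2.61 in LS neurons. These ranges overlapped, and the difference between segments was not tested.

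Summed marker lists of other cell types also moved between Gfra3 and Piezo2 neurons, and their part in the Oprm1 and Oprl1 differences was not tested. The summed level of the 10 satellite glia markers in LS ganglia had a median of 179.7 TPM in Gfra3 (6.83 to 56080 TPM, 3 markers in most neurons) and 2062 TPM in Piezo2 neurons (206.9 to 44613 TPM, 5 markers), while in TL ganglia the medians were 2525 and 2425 TPM. LS neurons with Oprm1 had a median glia sum of 372.5 TPM against 2769 TPM in those without it, and LS neurons with Oprl1 had 302.6 against 2101 TPM. The 6 fibroblast markers had medians of 194 and 1.23 TPM in LS Gfra3 and Piezo2 neurons (from 0 to 1866 and 0 to 1694 TPM) and 43.1 and 2.02 TPM in TL, with Dcn the one marker in most Gfra3 neurons. The 6 macrophage markers had medians of 71.7 and 24.7 TPM in LS and 46.5 and 3.51 TPM in TL Gfra3 and Piezo2 neurons, and C1qb was the one in most Gfra3 neurons. Over all neurons C1qb was expressed in 60.3%, with Cd68 next among macrophage markers at 11.1%. Dcn was expressed in 43.4%, with Col1a2 next among fibroblast markers at 5.23%. These 2 sums thus rest largely on 1 gene each. For the 5 Schwann cell markers the medians were 331.8 and 523.4 TPM in LS and 844 and 1476 TPM in TL neurons. Over all neurons this sum had a median of 763.8 TPM, and Pmp22 alone had 658.7 TPM.

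Such differences were not the rule across the transcriptome. A mean at least 2-fold higher in Gfra3 neurons was found for 12.6% of genes compared in TL and 9.37% in LS neurons, and one that also held its direction in each of plates 2 to 6 for 6.42% and 4.68%. A share higher by 20 percentage points or more was found for 4.77% of genes in TL and 3.5% in LS neurons, and Oprm1 and Oprl1 passed that mark in both.

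The 25 neurons with both Gfra3 and Piezo2 carried Oprm1 and seldom Oprl1. Oprm1 was expressed in 24 of them (96.0%, 79.6 to 99.9%) with a mean of 49.3 TPM, and Oprl1 in 5 (20.0%, 6.83 to 40.7%) with a mean of 7.20 TPM. Their Oprm1 level was thus near that of Gfra3 neurons and their Oprl1 level near that of Piezo2 neurons. Of the 22 neurons with neither gene, Oprm1 was expressed in 5 (22.7%, 7.82 to 45.4%).

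**Figure D1:**
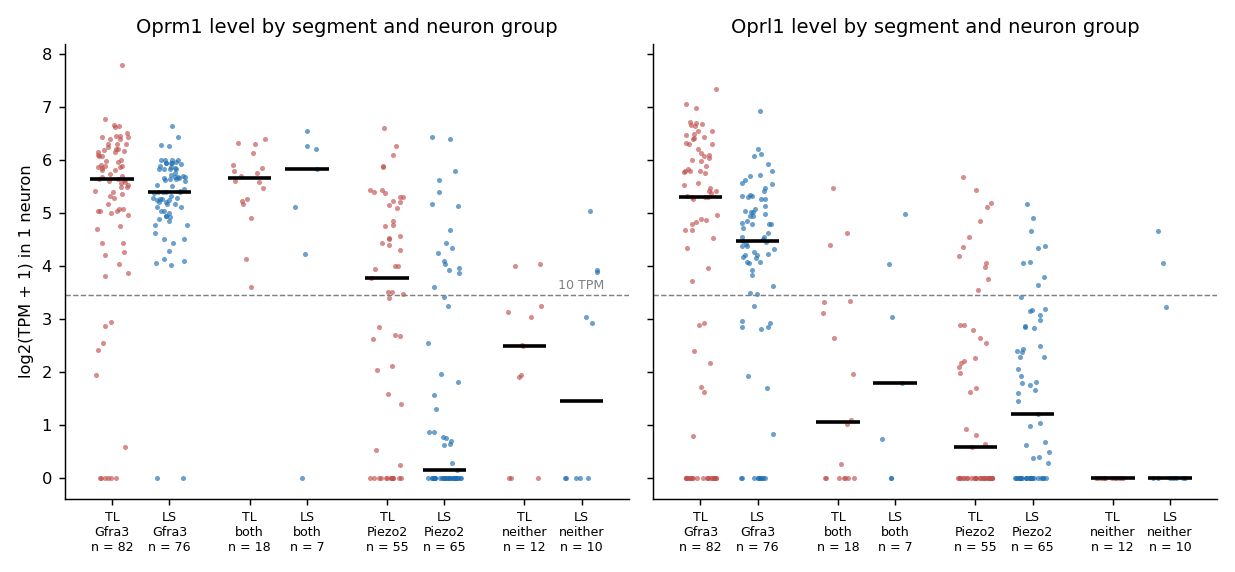
Level of Oprm1 (left) and Oprl1 (right) as log2(TPM + 1) in each neuron, by segment (TL red, LS blue) and by Gfra3 and Piezo2 expression, with 1 point per neuron, black bars at group medians and a dashed line at 10 TPM. Oprm1 medians were 48.6 and 41.3 TPM in TL and LS Gfra3 neurons against 12.7 and 0.111 TPM in Piezo2 neurons, and neurons with both genes had a mean of 49.3 TPM for Oprm1 and 7.20 TPM for Oprl1.

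Between the segments, the clearest difference in Oprm1 lay in the Piezo2 neurons. The mean was 9.0 TPM in LS and 19.5 TPM in TL Piezo2 neurons, a log2 ratio of -1.12, and the share of neurons was lower in LS by 30.2 percentage points. TL was higher in 4 of 5 plates. Plate 3 went the other way, with a mean of 26.9 TPM in 11 LS and 15.5 TPM in 10 TL Piezo2 neurons, and without it the log2 ratio was -1.93, while for Oprl1, at -0.48 with all plates, it was 0.15 without plate 3. Among all genes compared, 9.14% were at least 2-fold higher in TL Piezo2 neurons and 3.22% had a share higher there by 20 percentage points. Schwann cell markers were also higher in TL Piezo2 neurons, with a median sum of 1476 TPM (31.4 to 2075 TPM, 2 of 5 markers in most neurons) against 523.4 TPM in LS (0.515 to 2394 TPM, 1 of 5). Macrophage markers were lower, at a median of 3.51 TPM in TL (0 to 51.4 TPM, 0 of 6) against 24.7 TPM in LS (0 to 146.7 TPM, 1 of 6), and the part of either in the result was not tested. The study also described a subtype with Piezo2, marked by Hpse, that was nearly confined to LS neurons. Oprm1 was expressed in 9.09% of neurons with Hpse and in 84.2% of LS neurons without it, Gfra3 neurons included. The part of subtype in the segment difference was not tested.

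In Gfra3 neurons, Oprm1 did not differ between segments beyond the spread over plates. The means were 42.9 TPM in LS and 49.2 TPM in TL neurons, a log2 ratio of -0.20, with plates running from -0.66 to 0.18 and LS higher in 3 of 5. The LS share was nevertheless the higher, at 97.4% against 85.4%. TL Gfra3 neurons were more spread, with an SD of 34.4 TPM against 17.9 TPM in LS, and held both the highest Oprm1 level and more neurons below the threshold.

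Oprl1 in Gfra3 neurons had the higher mean in TL ganglia, while its share of neurons had overlapping intervals. Its mean in Gfra3 neurons was 24.7 TPM in LS and 40.9 TPM in TL, a log2 ratio of -0.73, which is short of 2-fold, and TL was higher in 5 of 5 plates. The share pointed the other way, 75.0% in LS against 65.9% in TL, and the difference in the mean of log2(TPM + 1) was -0.039. The medians of 21.2 TPM in LS and 38.3 TPM in TL and the highest values of 120.6 and 161 TPM show the TL neurons reaching higher levels. Satellite glia markers also moved between these groups, with a median summed level of 179.7 TPM in LS and 2525 TPM in TL Gfra3 neurons and 3 against 7 of 10 markers in most neurons, and their part in the result was not tested.

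Over all neurons, Oprm1 was expressed in 63.3% of LS (55.3 to 70.8%) and 72.5% of TL neurons (65.0 to 79.1%), and Oprl1 in 44.3% (36.4 to 52.4%) and 41.3% (33.8 to 49.2%). The log2 ratios of means, LS over TL, were -0.43 for Oprm1 and -0.67 for Oprl1, neither of them 2-fold. By the same measure 6.9% of genes were at least 2-fold higher in LS and 6.93% in TL neurons.

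**Figure D2:**
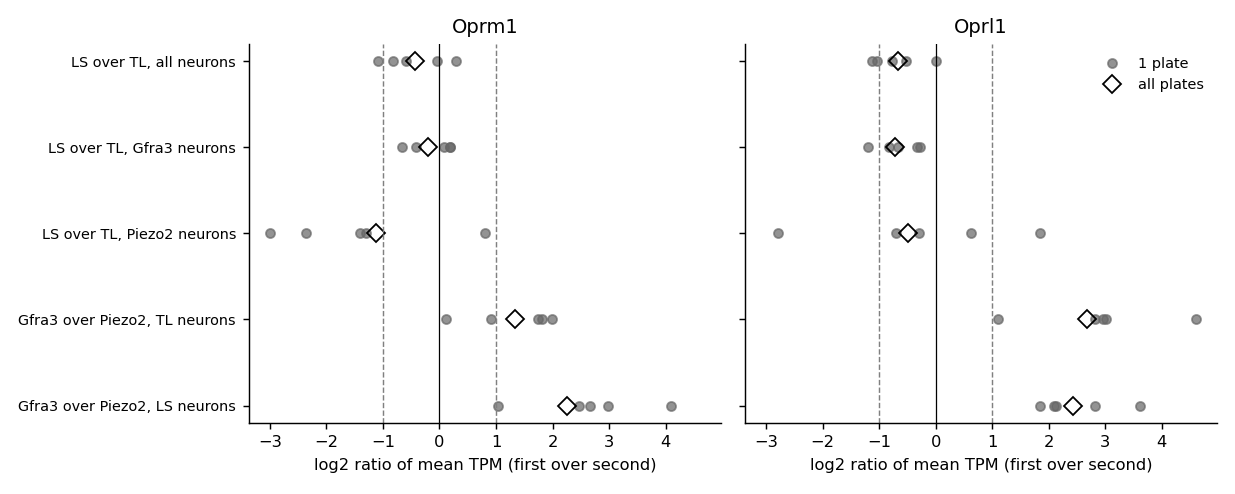
Log2 ratio of mean TPM for Oprm1 (left) and Oprl1 (right) in 5 comparisons, with diamonds for all plates together, points for each of plates 2 to 6 and dashed lines at 2-fold. For both genes all 5 plates lay above 0 for Gfra3 over Piezo2 neurons in both segments, and for LS over TL in Piezo2 neurons the Oprm1 points ran from -3.00 to 0.80.

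Whether Oprm1 and Oprl1 shared a neuron differed with the kind of neuron. Over all neurons, Oprl1 was expressed in 121 of 221 neurons with Oprm1 (54.8%, 47.9 to 61.4%) and in 18 of 104 without it (17.3%, 10.6 to 26.0%). In Gfra3 neurons, 110 of 111 neurons with Oprl1 also had Oprm1, while 34 had Oprm1 without Oprl1. Oprm1 was, however, in 144 of all 158 Gfra3 neurons (91.1%), and the share with Oprl1 was 76.4% (68.6 to 83.1%) with Oprm1 against 1 of 14 without it (7.14%, 0.181 to 33.9%).

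Piezo2 neurons showed the opposite order. Oprl1 was expressed in 4 of 48 Piezo2 neurons with Oprm1 (8.33%, 2.32 to 20.0%) and in 17 of 72 without it (23.6%, 14.4 to 35.1%). The contrast came from TL neurons, with 2 of 31 (6.45%, 0.791 to 21.4%) against 10 of 24 (41.7%, 22.1 to 63.4%). In LS Piezo2 neurons the counts were 2 of 17 (11.8%) and 7 of 48 (14.6%), with overlapping intervals.

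Where both receptors were expressed, their balance differed between segments, a difference that was not tested. Oprl1 was the higher of the pair in 30 of 58 TL neurons (51.7%) and in 18 of 63 LS neurons (28.6%), and the median ratio of Oprl1 to Oprm1 in TPM was 1.03 in TL and 0.606 in LS neurons. Spearman's rho between the levels was 0.58 over 82 TL and 0.29 over 76 LS Gfra3 neurons, where the points share plates and a scaling to the same total.

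**Figure D3:**
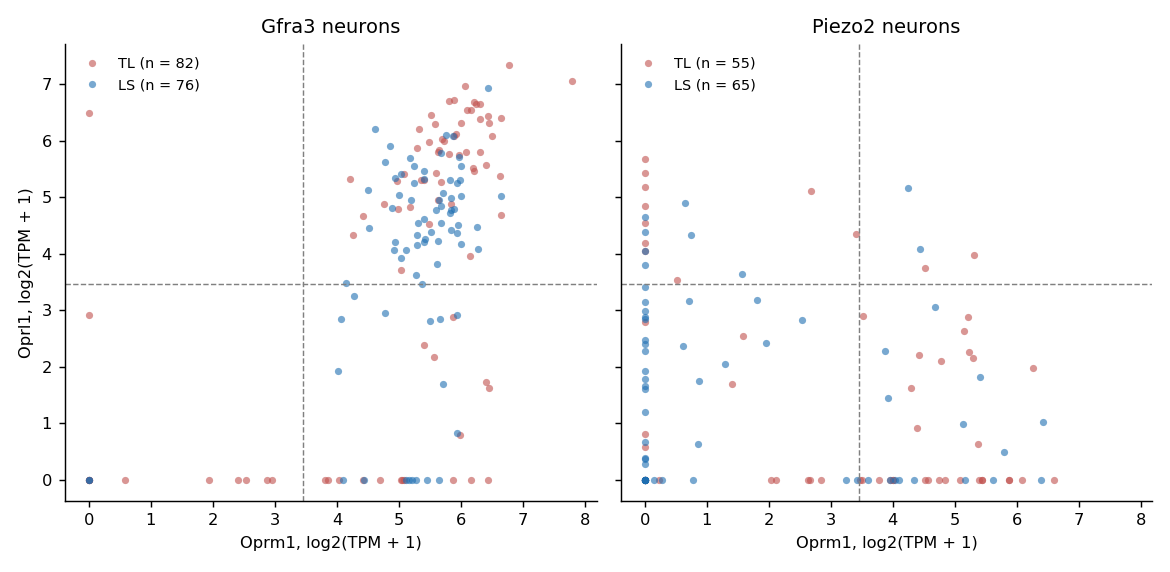
Oprl1 against Oprm1 as log2(TPM + 1) in Gfra3 neurons (left) and Piezo2 neurons (right), 1 point per neuron, TL red and LS blue, dashed lines at 10 TPM. In Gfra3 neurons 110 neurons lie in the upper right and 1 in the upper left, while in Piezo2 neurons 4 lie in the upper right and 17 in the upper left.

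The 7 genes that the study used to mark its subtypes by PCR divided the receptors further. These markers were picked on the same neurons, a neuron could carry several of them, and the counts are descriptions. Among 170 neurons with Trpa1, an irritant-gated channel of nociceptors, Oprm1 was expressed in 88.2% (82.4 to 92.7%) and Oprl1 in 61.2% (53.4 to 68.5%). In the 48 neurons with Ntm, all of them LS, the shares were 93.8% (82.8 to 98.7%) and 64.6% (49.5 to 77.8%).

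Neurons with Fam19a1 resembled these for Oprm1 in TL ganglia. Oprm1 was expressed in 29 of 34 TL neurons with Fam19a1 (85.3%, 68.9 to 95.0%) and in 1 of 6 LS neurons with it, and Oprl1 in 6 of the 34 (17.6%, 6.76 to 34.5%). In the 12 TL neurons with Cbln2 the order of the receptors was turned: Oprm1 was expressed in 0 of 12, which by the same floor allows a share of up to 25%, and Oprl1 in 6 of 12 (50.0%, 21.1 to 78.9%). Over both segments Cbln2 neurons had Oprm1 in 1 and Oprl1 in 9 of 17.

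Low shares of both receptors were found with Hpse and Mrgprd. Of the 44 neurons with Hpse, all LS, 4 expressed Oprm1 (9.09%, 2.53 to 21.7%) and 7 Oprl1 (15.9%, 6.64 to 30.1%; 1 neuron at 20 TPM), whereas Oprm1 was expressed in 96 of 114 LS neurons without Hpse (84.2%, 76.2 to 90.4%). Of 17 neurons with Mrgprd, a receptor of non-peptidergic nociceptors, 5 expressed Oprm1 (29.4%, 10.3 to 56.0%) and 2 Oprl1 (11.8%, 1.46 to 36.4%).

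Smr2 neurons stood out for Oprk1. Of 24 neurons with Smr2, 6 expressed Oprk1 (25.0%, 9.77 to 46.7%), against 3 of 301 without Smr2 (0.997%, 0.206 to 2.88%). Oprm1 was expressed in 14 of the 24 (58.3%, 36.6 to 77.9%) and Oprl1 in 0 of 24, for which the floor of 3 neurons is 12.5%. Both segments contributed, with Oprk1 in 4 of 17 TL and 2 of 7 LS neurons with Smr2. At 20 TPM Oprk1 remained in 2 of 24 neurons with Smr2 (8.33%) and 1 of 301 without it, and at 10 CPM it was in 37.5% and 13.3%.

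**Figure D4:**
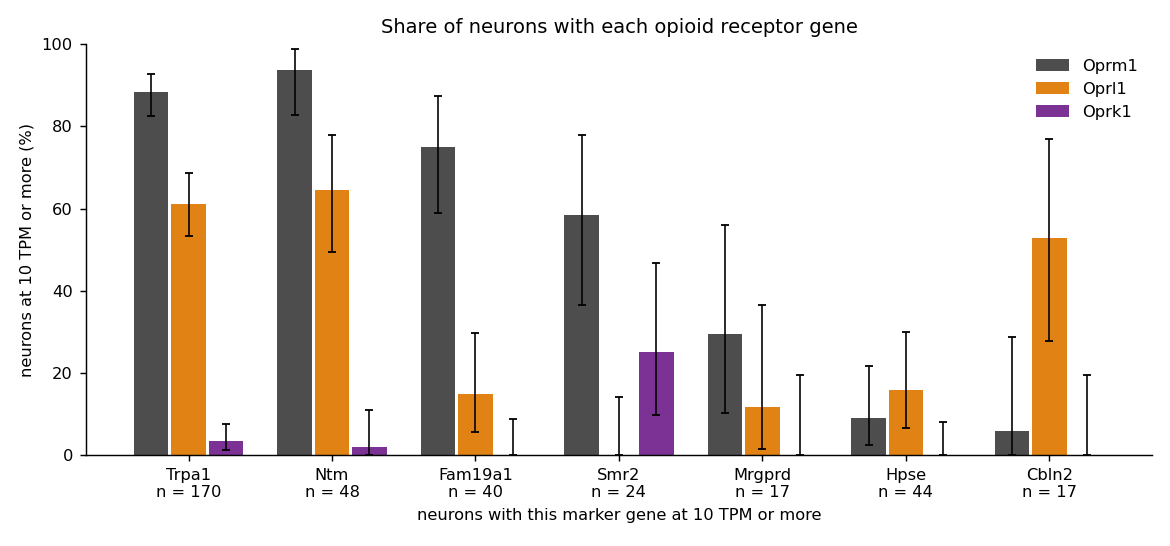
Share of neurons at 10 TPM or more for Oprm1, Oprl1 and Oprk1 among the neurons that expressed each of 7 subtype marker genes, with exact 95% intervals. Oprm1 was highest with Ntm (93.8%) and Trpa1 (88.2%), Oprl1 exceeded Oprm1 with Cbln2 (52.9% against 5.88%), and Oprk1 reached 25.0% with Smr2.

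Oprk1, on chromosome 1 from 5588466 to 5606131 (plus strand), was above 0 in 90 neurons and reached 10 TPM in 6 TL and 3 LS neurons. The 9 values were 29.8, 22.0, 21.3, 18.3, 14.8, 14.2, 13.7, 11.9 and 11.6 TPM, each backed by at least 28 reads. The count depended on the threshold and scale, as 8.62% of neurons reached 5 TPM and 15.1% reached 10 CPM, a measure of reads not scaled for gene length. The neuron at 13.7 TPM had a summed satellite glia level of 66758 TPM and 485751 reads in all, the lowest depth of any TL neuron. All 9 also expressed Oprm1, from 14.1 to 83.3 TPM, and 1 expressed Oprl1. By Gfra3 and Piezo2 they fell into every group, 3 in Gfra3 neurons, 3 in Piezo2 neurons, 2 with both genes and 1 with neither, and the mean level, 1.28 TPM in Gfra3 and 0.970 TPM in Piezo2 neurons, did not separate them.

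Oprd1, on chromosome 4 from 132110726 to 132144486 (minus strand), was above 0 in 22 neurons and highest at 8.20 TPM. That value and the next, 7.82 TPM, were in TL Gfra3 neurons and rested on 53 and 98 reads, so the reads were present but under the threshold. Of the 22 neurons, 16 were among the 158 Gfra3 neurons and 6 among the 120 Piezo2 neurons.

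Penk, on chromosome 4 from 4133531 to 4138819 (minus strand), was above 0 in 13 neurons. It was expressed in 3 LS neurons, at 110.6, 40.8 and 28.05 TPM, and in 1 TL neuron, at 10.3 TPM. The neuron at 40.8 TPM rested on 18 reads and had a summed satellite glia level of 44576 TPM, and the other 3 were Piezo2 neurons. The exons of A830012C17Rik on the opposite strand, a transcript with a mean of 0.0130 TPM, share 14.3% of the exonic bases of Penk. Segments and groups cannot be compared on so few neurons: the mean in LS was 1.20 TPM and in TL 0.119 TPM, and 1 neuron held most of the LS sum.

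Pdyn, on chromosome 2 from 129686565 to 129699844 (minus strand), was expressed in 2 LS neurons, a Piezo2 neuron at 62.9 TPM on 147 reads and a neuron with neither gene at 22.6 TPM on 60 reads. At any level above 0 it was found in 18 of 167 TL neurons, with a highest value of 7.24 TPM. In LS neurons it was above 0 in 5 of 158, the 2 that expressed it included. Neither neuron with Pdyn expressed an opioid receptor gene.

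Pnoc, on chromosome 14 from 65400673 to 65425472 (minus strand), was above 0 in 4 neurons, at 3.36, 2.53, 0.808 and 0.611 TPM, the last on 1 read. Across the 3 precursors, 6 of 325 neurons expressed any of them (1.85%, 0.680 to 3.98%) and 2 expressed a precursor together with a receptor gene. Most neurons with an opioid receptor gene therefore expressed none of these precursors at the threshold.

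Pomc, the classical opioid precursor that gives beta-endorphin and is not among the 7 members, was measured beside them. It was expressed in 50 of 325 neurons (15.4%, 11.6 to 19.8%), in 40 of 158 Gfra3 neurons (25.3%, 18.7 to 32.8%) and in 7 of 120 Piezo2 neurons (5.83%, 2.38 to 11.6%). In LS neurons its mean was 7.06 TPM in Gfra3 and 3.38 TPM in Piezo2 neurons, a log2 ratio of 1.06 with the same direction in 5 of 5 plates. The highest value was 75.5 TPM. The Pomc share depended on the threshold, with 39.1% of neurons at 5 TPM and 5.23% at 20 TPM.

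A list of 49 genes of opioid signalling and peptide processing was then examined for the machinery around the receptors, of which 43 or 44 had a mean of at least 1 TPM in a compared group. The 7 G protein genes, 5 inhibitory alpha and 2 beta subunits, differed by less than 2-fold in each of the 5 comparisons, with medians between -0.05 and 0.17 on the log2 scale. The median of the whole list was 0.17 for Gfra3 over Piezo2 in TL and 0.20 in LS neurons, beside 0.0028 and 0.0029 for all genes.

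Between Gfra3 and Piezo2 neurons of TL ganglia, 10 of 44 list genes were at least 2-fold higher in Gfra3 neurons, 9 of them with the same direction in each plate, and 6 were higher in Piezo2 neurons, all of them with the same direction in each plate. Over all genes compared, 12.6% were at least 2-fold higher in TL Gfra3 neurons and 6.42% also held in each plate. For TL Piezo2 neurons these shares were 11.2% and 5.55%. In LS ganglia the counts were 8 and 7 of 43 list genes, with 6 and 5 holding in each plate. Of all genes compared there, the Gfra3 side held 9.37%, or 4.68% with each plate. The Piezo2 side held 10.2%, or 6.53% with each plate. Adcy3 and Adcy5, adenylyl cyclases, were higher in Gfra3 neurons of both segments, at 16.6 against 6.90 TPM for Adcy3 in TL and 25.9 against 10.6 TPM in LS. Grk3, a kinase that phosphorylates activated receptors, and Rgs17, which shortens G protein signals, also passed in both.

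Adcy1, a calcium-stimulated cyclase, was on the Piezo2 side in both segments. Its mean was 0.0398 TPM in TL Gfra3 and 3.50 TPM in TL Piezo2 neurons, and 0.0890 and 1.93 TPM in LS. Kcnj3, the potassium channel subunit GIRK1 through which Gi/o-coupled receptors can act, was also higher in Piezo2 neurons, at 6.80 against 2.58 TPM in TL and 5.59 against 2.45 TPM in LS, although it reached 10 TPM in 11.4% of all neurons only. Pcsk1, a prohormone convertase, was higher in Piezo2 neurons by 2.36-fold in TL and 2.4-fold in LS.

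In TL neurons the Gfra3 side also held Rgs2, Rgs9, Pam, Ackr3 and Mrgprx1. Ackr3, an atypical chemokine receptor that also binds opioid peptides, had a mean of 15.7 TPM in TL Gfra3 and 1.57 TPM in TL Piezo2 neurons, and Pam, the enzyme that amidates peptides, 62.1 and 21.9 TPM. Rgs4, Rgs7 and Cpe were higher in TL Piezo2 neurons, with Cpe, a carboxypeptidase that trims peptide precursors, at 836.7 against 329 TPM. In LS neurons Rgs10 was on the Gfra3 side and Rgs20 and Pcsk2 on the Piezo2 side.

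Between segments, 3 of 44 list genes were at least 2-fold higher in LS and 3 in TL neurons over all neurons. Among all genes compared, 6.9% were at least 2-fold higher in LS and 6.93% in TL neurons. All 6 list genes also had the same direction in each plate, and 4.52% of all genes on the LS and 3.47% on the TL side passed both marks. Pcsk1 was at 135 TPM in LS and 45.9 TPM in TL neurons, and its share rose from 74.3% (66.9 to 80.7%) to 92.4% (87.1 to 96.0%). Rgs9 was at 8.57 and 3.13 TPM, and Kcnj9, the subunit GIRK3, at 1.42 and 0.380 TPM. Mrgprx1, a receptor of nociceptors, was lower in LS at 4.17 against 16.4 TPM, as were the kinases Grk3, at 1.95 against 4.29 TPM, and Grk5, at 0.961 against 2.10 TPM. In Gfra3 neurons Kcnj9 and Pcsk1 passed again on the LS side and Grk5 and Mrgprx1 on the TL side with the same direction in each plate, which 3.53% and 2.73% of all genes did, while 8.33% and 7.96% passed 2-fold alone.

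Among the comparisons of segments, Piezo2 neurons had the most list genes past 2-fold and also the largest share of all genes. There 7 of 43 list genes were at least 2-fold higher in LS, each in 5 of 5 plates, and 6 in TL, 3 of them in 5 of 5, beside 11.2% of all genes on the LS and 9.14% on the TL side. The LS side held the processing enzymes Pcsk1 at 210.0 against 73.3 TPM, Pcsk2 at 109 against 38.8 TPM and Pam at 70.1 against 21.9 TPM, along with Rgs9, Rgs20, Adcy8 and Ackr3. The TL side held Arrb1, beta-arrestin 1, at 30.8 against 11.8 TPM, and the regulators Rgs4 and Rgs10, at 1419 against 597.6 TPM and 198.5 against 33.9 TPM. Over all genes, 6.5% on the LS and 3.19% on the TL side also held in each plate.

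Across neurons, the genes whose levels followed Oprm1 most closely were Cyfip2, Tmem176a, Tmem176b, Peg3 and Gpr149, with Spearman's rho of 0.79, 0.78, 0.78, 0.78 and 0.76 over 325 neurons among 11450 genes ranked. Gpr149, an orphan receptor, was expressed in 82.8% of neurons with Oprm1 and 9.62% of those without. For Oprl1 the closest were Parm1, Kcnk2, Adra2a, Npffr2 and Stt3b, each at a rho of 0.67. Adra2a, the alpha-2A adrenoceptor and another Gi/o-coupled receptor, was expressed in 70.5% of neurons with Oprl1 and 11.3% of those without, and Npffr2, a receptor for neuropeptide FF, in 56.1% and 5.38%.

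Neither receptor was among the closest genes of the other, as Oprl1 ranked 457 for Oprm1 and Oprm1 ranked 352 for Oprl1. The rho with Gfra3 was 0.68 for Oprm1 and 0.64 for Oprl1, and with Piezo2 -0.45 and -0.44. With the number of genes above 0 in a neuron it was 0.22 and 0.40, and with depth 0.17 and 0.10, so neurons with more genes detected tended to have more Oprl1. In TL ganglia the neurons without Oprm1 had a median of 10254 genes against 13889 in those with it, and in LS ganglia 14173 against 13915.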

How the data were processed

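Neurons came from TL and LS dorsal root ganglia, and their groups and plates were taken from the labels. The labels list 203 TL and 196 LS neurons and 13 bath controls; the bath controls and 74 neurons were not analysed here. Per the submitters' processing notes and the methods of the study, libraries were demultiplexed with bcl2fastq 2.15.0.4, aligned to GRCm38.p3 with STAR 2.4.1 and counted with featureCounts 1.4.4. The authors had removed low-quality cells before they deposited log2 values, which are log2(x + 1) with x scaled per gene length, and satellite glia signal had not been removed from them. The table does not name its scaling, and the sum of x differed between neurons, so x was rescaled to a sum of 1000000 in each neuron (TPM). With exonic lengths from GENCODE M21, 65.0% of values above 0 gave whole read counts (relative tolerance 1e-06). Lengths of the remaining genes were solved from their own values as the smallest that gave whole reads in every neuron. Read totals are therefore lower limits, and TPM do not depend on them. On simulated data of 3000 genes all reads were recovered (100%). The simulation took the solved lengths as true and drew genes above 0 in many neurons. It thus did not cover the 760 genes with solved lengths that were above 0 in 1 or 2 neurons.

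Shares, means, ratios of means and, as strata, library plates were compared with Python 3.11.15, numpy 2.4.6, pandas 2.3.3 and scipy 1.17.1, and no test was made. Ratios were formed for genes with a mean of at least 1 TPM in a group. The members, lists and thresholds were chosen with earlier results of these data known. Named genes are all 7 members, Pomc, Gfra3, Piezo2, the signalling genes past 2-fold whose direction held in plates 2, 3, 4, 5 and 6, and the 5 genes with the highest rho, of at least 0.3, for members expressed in at least 6% of neurons. The 7 subtype markers were added after the values had been seen. Reads of overlapping genes on opposite strands cannot be told apart, since the counting is not stated to use strand. TPM were compared between genes only as values per length.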

Additional observations from a re-analysis of the deposited data

How the results depend on the processing

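Member shares, Oprm1 and Oprl1 ratios and share differences, Oprl1 shares with and without Oprm1, and list counts were recomputed with thresholds of 5 and 20 TPM, without the 35 neurons with few genes, with deposited values not rescaled, with CPM of recovered reads, with reads thinned to 400000 per neuron, without rRNA and mitochondrial genes, without each plate and, for groups, with Gfra3 and Piezo2 at 50 TPM. For Oprm1 and Oprl1, ratios past 2-fold and share differences past 20 percentage points kept their sign in all of these, and within single plates the ratios past 2-fold did so other than Oprm1 for LS over TL in Piezo2 neurons, which was 0.80 in plate 3. Signalling list genes past 2-fold that failed in a plate are counted in the text above. No neuron exceeded the limit set for satellite glia genes, so that alternative left out none. At 5 TPM the shares were 51.1% for Oprl1 and 8.62% for Oprk1, and Oprl1 was expressed in 28.9% of all and 36.9% of Piezo2 neurons without Oprm1. At 20 TPM they were 57.5% for Oprm1, 32.0% for Oprl1 and 0.923% for Oprk1, and Oprl1 was expressed in 9.42% of neurons without Oprm1, in 66.4% of Gfra3 neurons with it, and in 0% and 10.1% of Piezo2 neurons with and without it. In CPM, which are not scaled for length, shares were 74.8% for Oprm1 and 15.1% for Oprk1, with Oprl1 in 26.8% of neurons without Oprm1; after thinning they were 75.1%, 15.1% and 28.4%. The share with Oprl1 among the 14 Gfra3 neurons without Oprm1, 7.14%, rests on 1 neuron: it was 0% without neurons with few genes and with groups at 50 TPM, and 0 to 9.09% without each plate. As differences of mean log2(TPM + 1), LS over TL was 0.050 for Oprl1 in all neurons and 0.23 for Oprm1 and -0.039 for Oprl1 in Gfra3 neurons, and Gfra3 over Piezo2 in LS was 3.67 for Oprm1. Within plates, values outside the spread over plates were, for LS over TL, 0.29 and -1.09 (Oprm1, all neurons, plates 3 and 4), -0.00079 and -1.13 (Oprl1, all neurons, plates 5 and 6), -0.66 (Oprm1, Gfra3 neurons, plate 4), -0.28, -0.34 and -1.20 (Oprl1, Gfra3 neurons, plates 3, 5 and 6), 0.80 and -3.00 (Oprm1, Piezo2 neurons, plates 3 and 5) and 1.84 and -2.79 (Oprl1, Piezo2 neurons, plates 2 and 3). For Gfra3 over Piezo2 they were 0.12 (Oprm1, TL, plate 2), 4.60 and 1.11 (Oprl1, TL, plates 2 and 3), 1.04 and 4.10 (Oprm1, LS, plates 3 and 5) and 3.62 (Oprl1, LS, plate 3). Without each plate, LS over TL in Piezo2 neurons ran from -1.93 to -0.80 for Oprm1 and from -0.87 to 0.15 for Oprl1. The Penk log2 ratio, LS over TL, was 3.33 and fell to 2.08 without its highest neuron, an alternative chosen after seeing the data. It was 0.93 without neurons with few genes, and Penk was higher in LS in 4 plates and in TL in plate 4 (0 in LS and 0.0596 TPM in TL). Shares by subtype marker, the balance of Oprl1 and Oprm1, neurons with both Gfra3 and Piezo2 or no receptor gene, and Pomc were also recomputed, a choice made after seeing the data with markers kept at 10 TPM. Of 524 such values, the Penk ratio included, 50 moved beyond their interval or the spread over plates. At 5 and 20 TPM, neurons with no receptor gene were 19.4% and 38.5%, Oprl1 with Hpse 34.1% and 2.27%, and the Oprl1 to Oprm1 ratio 0.948 and 1.08 in TL and 0.556 and 0.732 in LS neurons; Oprm1 with Hpse was 4.55% at 20 TPM. Within TL and LS neurons the rho of the 10 genes named as closest to Oprm1 or Oprl1 ran from 0.61 to 0.82. Of 142 recomputed list counts, 137 stayed within 1.5 times. The causes of these shifts were not tested. No paired analysis was possible because replicate numbers were given in accession order and only name neurons, the labels tie no TL neuron to an LS neuron, and no test was made; plates 2 to 6 served as strata.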
